A study of Danio rerio with 21 samples.

Results

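The genes described here are named for the proteins of the cytosolic ribosome, the particle that translates nuclear-encoded mRNA. They were taken from a microarray time course of the zebrafish heart by their names alone: every array feature (a set of probes with 1 signal) annotated with a single symbol that starts with rpl or rps and a digit, or with rplp, was kept, and the rps6k kinases were left out. This gave 85 features of the 20806 that carry a single symbol and of the 75212 on the array. Each gene was read from its brightest feature, by the average of all 21 arrays, which left 69 genes. By name, 40 were counted to the large subunit (rpl and rplp) and 29 to the small subunit (rps). Names alone also admit relatives such as rpl7l1, whose yeast counterpart acts in the assembly of the large subunit. All 69 passed the filter on dim features, a log2 signal over 6 in at least 1 array.

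A total of 21 arrays was measured, 3 for each of 7 groups of adult TU zebrafish aged 10 to 11 months. The uninjured controls were compared with hearts recovered 4 hours (4 hpi) or 1 to 90 days (1, 3, 7, 14 or 90 dpi) after a cryoinjury, in which a cold probe kills part of the ventricle wall. The labels name no uninjured group matched to each time, so differences in age or time of collection cannot be told apart from the injury. A supplementary table of the study calls its controls sham, whereas the labels and methods call them uninjured, so whether the controls were operated on is not settled and a difference from control may or may not include the operation. Each array holds RNA pooled from 5 whole ventricles, so dead, surviving and newly arrived cells are mixed, and a lower signal from fewer cells of a type cannot be told apart from less RNA per cell. The labels name no allele or transgene in any group, and the p-values below measure the spread between pools of 3 independent experiments.

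Ribosomal proteins assemble with ribosomal RNA in the nucleolus, and most are needed in equal amounts, since a protein left without a partner is degraded. Their mRNAs are abundant in every cell and begin with a run of pyrimidines through which the Tor kinase controls how strongly they are translated, often with little change in their amount. For that reason some of them (rpl13a, rps18 and rpl8 among those on this array) are widely used as reference genes in zebrafish qPCR.

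Arrays of the same group correlated with r between 0.95 and 0.98 over the 35783 tested features, arrays of different groups with r between 0.84 and 0.97, and no pair was identical. Of 12 listed cardiomyocyte markers 10 were on the array and 9 passed the filter. Of these, tnnt2a and actc1a read at least 12.94 and 13.43 on the log2 scale in the control pools, and the levels of the others are not given here. The markers were not used to tell the ventricle from other parts of the heart. The array 4 hpi replicate 2 and the array control replicate 1 stood apart in a subset of ribosomal protein features, and the 4 hpi values of rpl7a, rpl13a, rpl26 and the dimmer features are given below with and without them.

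As a family, the 69 genes moved little. The median log2 difference from control was 0.03 at 4 hpi, 0.06 at 1 dpi, 0.14 at 3 dpi, 0.12 at 7 dpi, -0.06 at 14 dpi and -0.16 at 90 dpi. The middle 50% of the family spanned -0.08 to 0.12 at 4 hpi, where the middle 50% of all tested features spanned -0.30 to 0.47. At 90 dpi the same spans were -0.29 to 0.01 for the family and -0.26 to 0.30 for all tested features. Of the 69 genes, 54 (78.3%) stayed within 0.5 of control on the log2 scale at all 6 times, against 30.8% of all tested features, and the median of each gene's largest absolute difference was 0.29 against 0.68. The steadiest was rpl7, a large-subunit protein, whose 7 group means spanned 0.11, followed by rpl6 with 0.13 and rpl23a with 0.20. These values hold for the brightest feature of each gene, and the tested features set beside them were not matched for brightness. The 13 tested dimmer features of the same family, described below, had a median of -0.96 at 4 hpi, with 10 called lower and 1 higher.

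**Figure D1:**
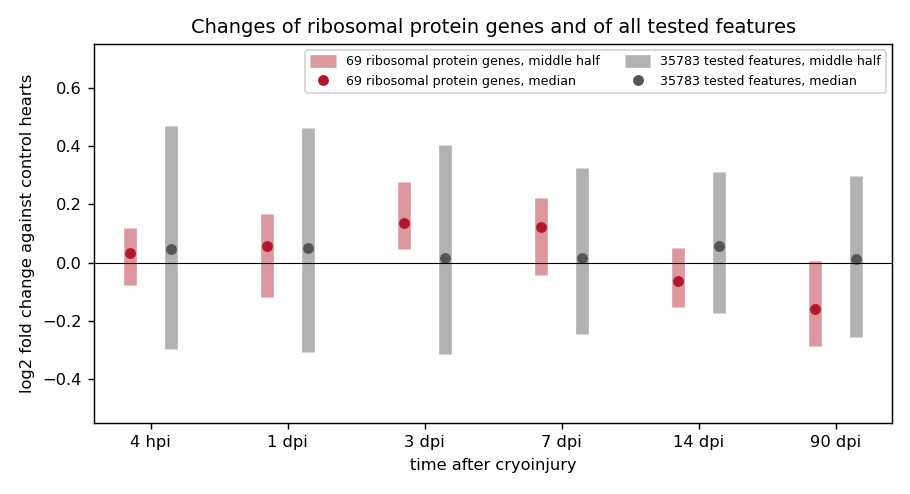
Median (points) and middle 50% (bars) of the log2 difference from the control hearts at each time after cryoinjury, for the 69 ribosomal protein genes (red) and the 35783 tested features (grey). The red bars are shorter than the grey at every time. The red median of 0.03 at 4 hpi turned below 0 after quantile normalization, and those at 4 hpi and 1 dpi did so after each array was centred on its own median.

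The direction of the small shift of the family depended on the scaling of the arrays. The median of -0.06 at 14 dpi and of -0.16 at 90 dpi stayed below 0 with quantile normalization (-0.07 and -0.13) and with each array centred on its own median (-0.18 and -0.21). The median of 0.14 at 3 dpi was 0.15 with quantile normalization and 0.00 with centring. The medians at 4 hpi were -0.04 and -0.09 under these scalings, and that at 1 dpi was 0.05 and -0.13. Centring itself moved the median of all tested features from 0.05 to -0.13 at 1 dpi and from 0.02 to -0.12 at 3 dpi.

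The mean of the 69 genes in each array showed the same course in the deposited values. The array means with centred arrays are not given here. Relative to the control mean, the 3 control pools lay at -0.06, 0.02 and 0.05 on the log2 scale, the 3 dpi pools at 0.14, 0.21 and 0.06, and the 7 dpi pools at 0.06, 0.17 and 0.04. The 14 dpi pools lay at -0.11, -0.10 and -0.07 and the 90 dpi pools at -0.14, -0.12 and -0.19. The 3 dpi pools were all above the control pools, the 14 and 90 dpi pools all below them, and the 7 dpi pools overlapped the controls, as did those at 4 hpi (-0.09 to 0.03) and 1 dpi (-0.01 to 0.03).

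Genes were called at an adjusted p under 0.05 in a limma fit across all tested features. At 4 hpi 5 of the 69 were called higher and 6 lower, where 21.3% of all tested features were higher and 17.5% lower. At 1 dpi 6 were higher and 5 lower, against 22% and 16.5%. At 3 dpi 15 were higher and 4 lower, against 20.7% and 14.9%. In either direction these are 11, 11 and 19 of 69, against 38.9%, 38.5% and 35.5% of all tested features, and in each direction the family's share was near or below that of all features. The counts moved with the scaling. With centred arrays 4 were higher and 12 lower at 4 hpi, against 16.3% and 23.8% of all tested features. At 1 dpi 2 were higher and 19 lower (15.7% and 26.6%). The balance turned at 1 dpi, and did so with quantile normalization too (5 and 8, against 18.3% and 21.3%). With centring it did not turn at 4 hpi or 3 dpi. At 3 dpi 7 were higher and 5 lower (16.3% and 22.8%).

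The later times had fewer calls. At 7 dpi 4 genes were higher and 3 lower, against 14.5% and 8.02% of all tested features. With centred arrays that balance turned, with 3 higher and 4 lower, against 11.2% and 12.9%. At 14 dpi none was higher and 4 were lower, against 9.39% and 4.57%. At an unadjusted p under 0.05 1 gene was higher, and the share of all tested features at that threshold is not given here. With quantile normalization and with centring, none was higher at 14 dpi either. At 90 dpi 2 were higher and 10 lower, against 11.2% and 7.68%, so the 10 lower genes are 14.5% of the family. In either direction 7, 4 and 12 genes were called, against 22.6%, 14% and 18.9%. Over the whole course 37 genes (53.6%) were called at no time, against 33.7% of all tested features, 19 were higher at some time and 14 lower, and rpl7l1 was both.

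Leaving out 1 pool lowered the count at 3 dpi in each case and that at 90 dpi in all but 1 case. The 19 calls of 3 dpi fell to 10 without 3 dpi replicate 2, to 12 without any 1 of the controls, and to 13 or 14 without the other 3 dpi pools. The 12 calls of 90 dpi fell to 5 without control replicate 3, to 6 without control replicate 2, 90 dpi replicate 2 or 90 dpi replicate 3, and to 8 without 90 dpi replicate 1, and stayed at 12 without control replicate 1.

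Small-subunit genes made up more of the calls at 3 dpi. Of 29 small-subunit genes 10 (34.5%) were higher and 2 (6.9%) lower, with a median of 0.23. Of 40 large-subunit genes 5 (12.5%) were higher and 2 (5%) lower, with a median of 0.13. Among all tested features 20.7% were higher and 14.9% lower. Among tested genes with a symbol, each read from a single feature, 29.5% were higher and 19.7% lower. The 34.5% of the small subunit was near the higher share of these genes, and the 12.5% of the large subunit was below it. The difference between the subunits was not tested. With centred arrays these counts were 3 higher and 2 lower for the small subunit (median 0.10) and 4 higher and 3 lower for the large subunit (median -0.01). The shares of all tested features were then 16.3% higher and 22.8% lower.

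**Figure D2:**
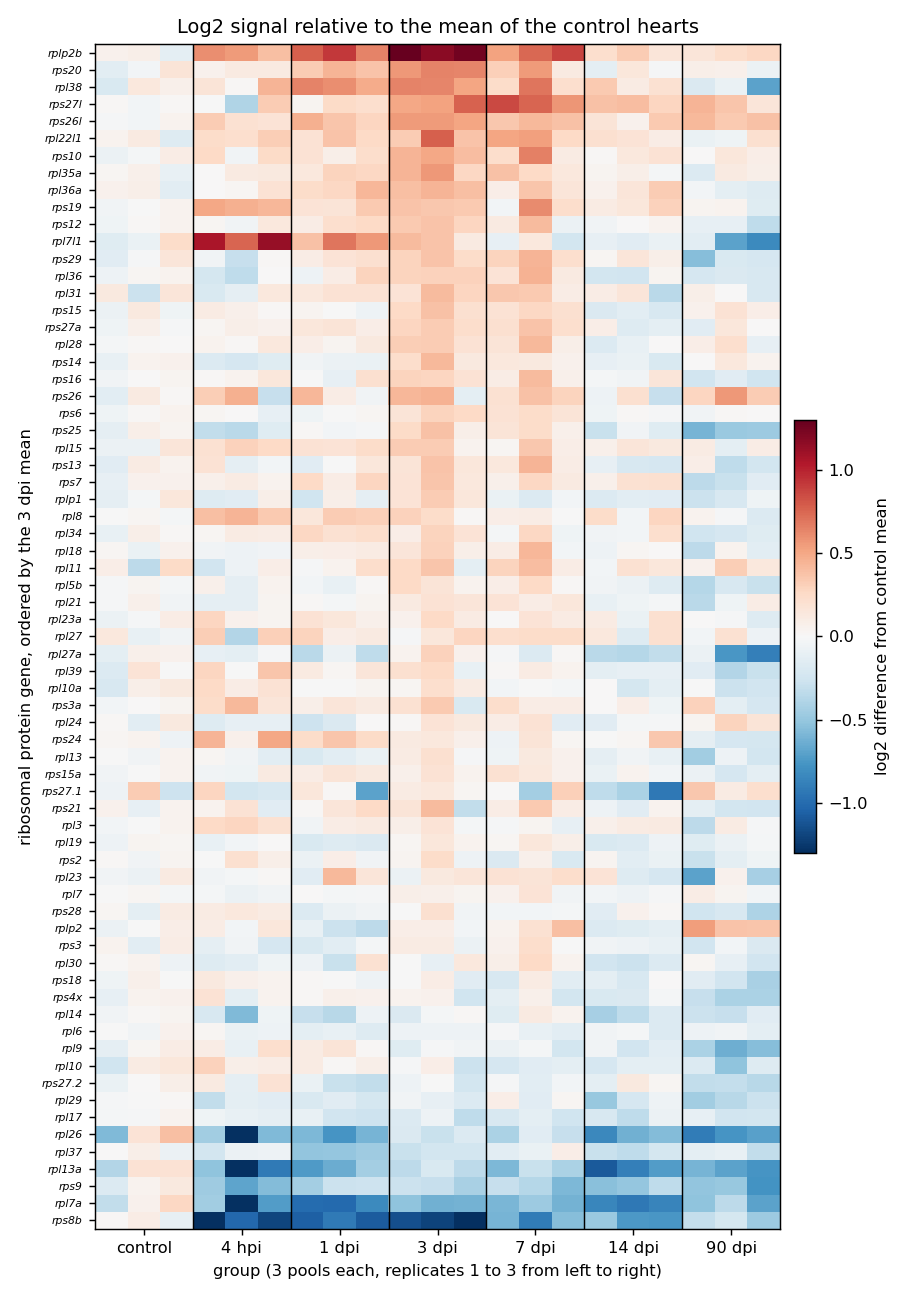
Log2 signal of the 69 ribosomal protein genes (rows, ordered by their mean at 3 dpi) in each of the 21 pools (columns), relative to the mean of the 3 control pools; red is higher and blue lower. The rows of rplp2b at the top and of rps9, rpl7a and rps8b at the bottom stand out, and most rows stay pale throughout.

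Counting genes whose 3 pools at a time did not overlap the 3 control pools gave a count that needs no shared variance. At 3 dpi 29 genes (42%) lay wholly above the controls and 7 wholly below, against 27.7% and 22.9% of all tested features. Among tested genes with a symbol, each read from a single feature, these shares were 37.5% and 28.3%. The 3 dpi split with centred arrays is not given here. With that scaling the family median at 3 dpi was 0, with 7 genes called higher and 5 lower. The 29 are therefore not read as a rise of the family. At 90 dpi 5 lay above and 27 below, against 19.4% and 14.7%, so that 27 of 69 (39.1%) were below. At 14 dpi 6 lay above and 17 below, against 20.7% and 13.5%.

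The remaining times were 4 hpi and 1 and 7 dpi. At 4 hpi 11 lay above and 10 below, against 26.4% and 21.8%. At 1 dpi 21 lay above and 14 below, against 28.5% and 22.9%, and at 7 dpi 25 lay above and 4 below, against 23.8% and 17.4%. With centred arrays the splits were 6 above and 26 below at 4 hpi, 3 and 32 at 1 dpi, and 8 and 12 at 7 dpi. Centring also moved the median of all tested features, to -0.079, -0.134 and -0.085 at these times. The share of all tested features without overlap under centring is not given here, so these splits are not read as a fall of the family.

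Among the genes that rose, rplp2b had the largest change. It encodes a P2 acidic protein of the stalk by which the large subunit binds elongation factors, and RefSeq also lists it as rplp2l. The signal of rplp2b was 8.03, 8.05 and 7.84 in control pools, 8.58, 8.53 and 8.37 at 4 hpi, 8.76, 8.89 and 8.62 at 1 dpi, 9.38, 9.15 and 9.23 at 3 dpi, 8.50, 8.72 and 8.86 at 7 dpi, 8.20, 8.31 and 8.14 at 14 dpi, and at 90 dpi it was 8.13, 8.20 and 8.24. Every injured pool lay above every control pool, and the 3 dpi pools above all others. At 3 dpi the log2 difference of rplp2b was 1.28 ± 0.11 (SE, 3 pools against 3, limma adjusted p = 1.86e-07), a 2.42-fold higher signal.

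The rise of rplp2b was called from 4 hpi (0.52, limma adjusted p = 0.00174) through 1 dpi (0.78, 3.62e-05) to 7 dpi (0.72, 0.000289), also without any 1 pool of those comparisons. At 14 and 90 dpi its differences of 0.24 and 0.22 were not called (adjusted p = 0.186 and 0.193).

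The gene of the other P2 protein on the array, rplp2, took another course. Its signal was 10.04, 10.11 and 10.20 in control pools, 10.21, 10.08 and 10.26 at 4 hpi, 10.02, 9.83 and 9.78 at 1 dpi, 10.21, 10.21 and 10.08 at 3 dpi, 10.16, 10.31 and 10.51 at 7 dpi, 9.94, 9.96 and 9.99 at 14 dpi, and at 90 dpi it was 10.66, 10.49 and 10.48. The 90 dpi pools were above all controls, and those of 1 and 14 dpi were below them. The difference at 90 dpi was called (0.43 ± 0.11, limma adjusted p = 0.0117), at a time when the family median was -0.16, and with centred arrays the difference at 1 dpi was called too. The gene of their partner in the stalk, rplp1, was called at no time.

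**Figure D3:**
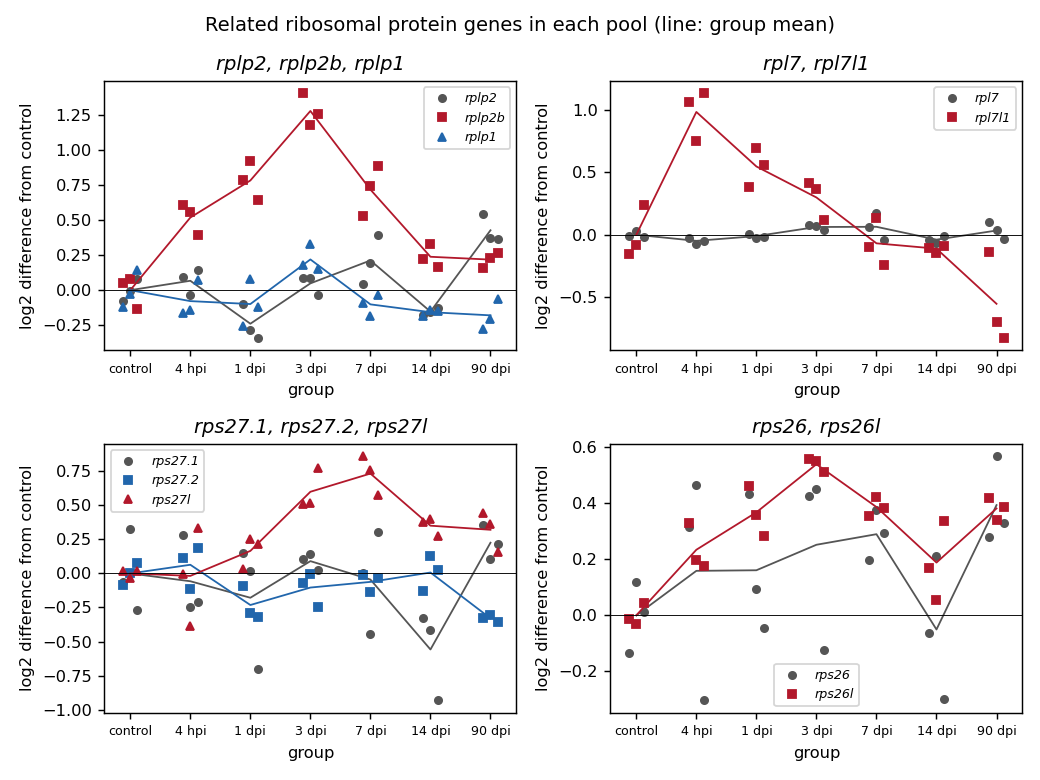
Log2 difference from the control mean in each pool (symbols) and group means (lines) for 4 sets of related ribosomal protein genes at each time after cryoinjury. The red symbols of rplp2b reach 1.28 at 3 dpi on average and those of rpl7l1 0.98 at 4 hpi, while rplp2, rplp1 and rpl7 (grey, blue) stay within about 0.5 of the controls; the scales differ between panels.

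A second pair of related genes, rpl7 and rpl7l1, parted early. The protein rpl7 belongs to the large subunit, and rpl7l1 is its relative, whose yeast counterpart Rlp7 acts in the assembly of that subunit. The signal of rpl7l1 was 6.59, 6.66 and 6.98 in control pools, 7.81, 7.50 and 7.88 at 4 hpi, 7.13, 7.44 and 7.30 at 1 dpi, 7.16, 7.11 and 6.86 at 3 dpi, 6.64, 6.88 and 6.51 at 7 dpi, 6.64, 6.60 and 6.66 at 14 dpi, and at 90 dpi it was 6.61, 6.05 and 5.92. The 4 hpi pools lay above all other pools and the 1 dpi pools above the controls, while replicates 2 and 3 of 90 dpi were the lowest of all.

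The log2 difference of rpl7l1 was 0.98 ± 0.17 at 4 hpi (limma adjusted p = 0.000218) and 0.55 ± 0.17 at 1 dpi (0.0169), and -0.55 ± 0.17 at 90 dpi (0.0316). The first held without any 1 pool. The call at 1 dpi was lost without 1 dpi replicate 2, control replicate 1 or control replicate 2 (highest adjusted p = 0.0694), and with both other scalings. The call at 90 dpi was lost without 90 dpi replicate 2 or 3 or control replicate 2 or 3 (highest 0.138). The signal of rpl7 stayed between 10.55 and 10.80 in all 21 pools, with differences of -0.05 to 0.06 and none called.

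The 3 rps27 genes also differed. The protein rps27 is part of the small subunit, and in human cells its relative RPS27L is a target of p53. The signal of rps27l was 8.71, 8.65 and 8.71 in control pools, 8.69, 8.30 and 9.02 at 4 hpi, 8.72, 8.94 and 8.90 at 1 dpi, 9.20, 9.21 and 9.46 at 3 dpi, 9.55, 9.45 and 9.27 at 7 dpi, 9.06, 9.08 and 8.97 at 14 dpi, and at 90 dpi it was 9.13, 9.05 and 8.85. All pools from 1 dpi on lay above the controls. Its calls came at 3 dpi, with a log2 difference for rps27l of 0.60 ± 0.15 (limma adjusted p = 0.00403), and at 7 dpi, with 0.73 ± 0.15 (0.00182), both also without any 1 pool. A second, dimmer feature of rps27l was called at no time, with 0.24 at 3 dpi (limma adjusted p = 0.569) and 0.24 at 7 dpi (0.607).

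For rps27.2 the 6 differences lay between -0.33 and 0.06, and the one at 90 dpi (adjusted p = 0.0431 in limma) was lost without any 1 of the 6 pools (highest 0.137). The signal of rps27.2 was 7.92, 8.005 and 8.08 in control pools, between 7.68 and 8.19 from 4 hpi to 14 dpi, and 7.67, 7.69 and 7.64 at 90 dpi, all 3 below the controls. The gene rps27.1 had the widest spread, with 8.16, 8.55 and 7.96 in control pools, 7.90, 7.81 and 7.29 at 14 dpi and 8.58, 8.33 and 8.44 at 90 dpi, and was called at no time against control.

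Of the rps26 pair, which also encodes a small-subunit protein, rps26l rose in its brightest feature and rps26 was not called. A dimmer feature of rps26l was called lower at 4 hpi and at 1, 14 and 90 dpi, as given below, so the direction of rps26l is uncertain. The values that follow are those of the brightest features. The signal of rps26l was 10.56, 10.55 and 10.62 in control pools, 10.90, 10.77 and 10.75 at 4 hpi, 11.04, 10.94 and 10.86 at 1 dpi, 11.13, 11.13 and 11.09 at 3 dpi, 10.93, 11.00 and 10.96 at 7 dpi, 10.75, 10.63 and 10.91 at 14 dpi, and at 90 dpi it was 11.00, 10.92 and 10.96. Every injured pool of rps26l was above every control pool. Its log2 difference was 0.37 at 1 dpi (limma adjusted p = 0.00406), 0.54 at 3 dpi (0.000176), 0.39 at 7 dpi (0.0058) and 0.38 at 90 dpi (0.00944), each with an SE of 0.09 and each held without any 1 pool.

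For rps26 the differences lay between -0.05 and 0.39 with an SE of 0.20. Its signal was 8.90, 9.16 and 9.05 in control pools, 9.35, 9.50 and 8.73 at 4 hpi, 9.47, 9.13 and 8.99 at 1 dpi, 9.46, 9.49 and 8.91 at 3 dpi, 9.23, 9.41 and 9.33 at 7 dpi, 8.97, 9.25 and 8.74 at 14 dpi, and at 90 dpi it was 9.32, 9.60 and 9.37. Its pools of 7 and 90 dpi lay above the controls, and in every other group a pool overlapped them. Whether the differences between rps26 and rps26l, or between any of these related genes, exceed their errors was not tested, nor was it tested how far the probes of related genes can be told apart by the mRNA that binds them.

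Other genes rose around 3 dpi, when the family median was highest as deposited and with quantile normalization. With centred arrays it was 0.00 at 3 dpi and 0.02 at 7 dpi, and 7 genes in place of 15 were called higher at 3 dpi. The genes below were called as deposited. These were rpl38, rpl36a, rpl35a and rpl22l1 of the large subunit and rps6, rps10, rps12, rps14, rps15, rps19, rps20 and rps27a of the small subunit. The protein rps6 is the substrate of the S6 kinases, rps27a is made as a fusion with ubiquitin, and loss of rps19 in humans causes Diamond-Blackfan anaemia. Their log2 differences at 3 dpi were between 0.24 (rps6, adjusted p = 0.0302) and 0.61 (rps20, 0.00047) in limma.

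The signal of rps20 was 8.51, 8.60 and 8.82 in control pools, 8.97, 9.09 and 9.01 at 1 dpi, 9.21, 9.29 and 9.27 at 3 dpi, 8.96, 9.20 and 8.76 at 7 dpi, and at 14 dpi it was 8.52, 8.79 and 8.63. Its 1 and 3 dpi pools lay above the controls and its 14 dpi pools among them, as did its 4 hpi pools (8.70, 8.76 and 8.76) and 90 dpi pools (8.72, 8.71 and 8.57). The call of rps20 at 1 dpi (0.38 ± 0.12, limma adjusted p = 0.0151) was lost without 1 dpi replicate 2 or control replicate 1 (highest 0.0705) and with centred arrays.

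The large-subunit gene rpl38 had a similar course at 1 and 3 dpi. Its signal was 7.63, 7.95 and 7.88 in control pools, 7.99, 7.84 and 8.27 at 4 hpi, 8.47, 8.42 and 8.30 at 1 dpi, 8.47, 8.46 and 8.34 at 3 dpi, 8.06, 8.51 and 8.04 at 7 dpi, 8.16, 7.93 and 8.02 at 14 dpi, and at 90 dpi it was 7.63, 7.74 and 7.12. The pools of 1, 3 and 7 dpi were above the controls, and 90 dpi replicate 3 was the lowest of all. Against control rpl38 differed by 0.58 ± 0.16 at 1 dpi (limma adjusted p = 0.0101; 0.0519 without control replicate 1) and 0.60 ± 0.16 at 3 dpi (0.00852).

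The paralog of rpl22, rpl22l1, rose at 3 dpi (0.49 ± 0.13, limma adjusted p = 0.00658) and 7 dpi (0.43 ± 0.13, 0.0221). Its signal was 7.26, 7.33 and 7.05 in control pools, 7.45, 7.43 and 7.53 at 4 hpi, 7.39, 7.59 and 7.47 at 1 dpi, 7.54, 7.98 and 7.58 at 3 dpi, 7.73, 7.74 and 7.47 at 7 dpi, 7.42, 7.39 and 7.31 at 14 dpi, and at 90 dpi it was 7.13, 7.15 and 7.42. All pools from 4 hpi to 7 dpi were above the controls. The call of rpl22l1 at 7 dpi was lost without 7 dpi replicate 1 or 2 or control replicate 3 (highest adjusted p = 0.106) and with both other scalings.

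At 4 hpi rps19 and rpl8 had the next largest rises after rpl7l1 and rplp2b. The signal of rps19 was 7.25, 7.29 and 7.34 in control pools, 7.80, 7.76 and 7.73 at 4 hpi, 7.47, 7.46 and 7.64 at 1 dpi, 7.66, 7.64 and 7.63 at 3 dpi, 7.26, 7.90 and 7.52 at 7 dpi, 7.40, 7.44 and 7.60 at 14 dpi, and at 90 dpi it was 7.33, 7.34 and 7.14. The pools of 4 hpi and of 1, 3 and 14 dpi lay above all controls, and the 7 and 90 dpi pools overlapped them. The log2 difference of rps19 at 4 hpi was 0.47 ± 0.13 (limma adjusted p = 0.00751). At 3 dpi it was 0.35 ± 0.13 (0.0403), and this call was lost without any 1 of the 6 pools (highest 0.0998) and with both other scalings. The fifth gene called higher at 4 hpi was rps24, of the small subunit (0.34 ± 0.12, limma adjusted p = 0.0366).

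Markers of other cell types moved too. At 4 hpi 10 of 13 leukocyte markers were already called higher and 1 lower. At 3 dpi 12 of the 13 were higher and none lower, with an array mean 2.37 to 2.86 above control, and at 90 dpi 8 of 13 were, with a mean 0.61 to 0.96 above. Of 9 epicardial and fibroblast markers 8 were higher at 3 dpi (2.02 to 2.19 above) and 1 at 90 dpi (-0.03 to 0.18). All 5 proliferation markers were higher at 1 and 3 dpi, and none at 4 hpi, when 1 was lower (-0.25 to -0.15). Of 9 cardiomyocyte markers, 4 were lower and none higher at 3 dpi (-0.49 to -0.36), and 2 were lower at 90 dpi (-0.25 to -0.21). The mean of 8 erythrocyte markers lay between -0.82 and -0.45 at 14 dpi and between -0.62 and -0.40 at 90 dpi, when the family was also low, with 2 and 1 of them called lower, and spanned -0.46 to 0.40 among the control pools. Among all tested features 21.3%, 22%, 20.7% and 11.2% were called higher at 4 hpi and 1, 3 and 90 dpi. Lower calls were 17.5%, 14.9%, 4.57% and 7.68% of all tested features at 4 hpi and 3, 14 and 90 dpi. The part of these cell types in the changes of the ribosomal protein genes was not tested.

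Among the genes that fell, rps8b had the largest change. It encodes a small-subunit protein. Its signal was 9.02, 9.11 and 8.90 in control pools, 7.46, 7.99 and 7.82 at 4 hpi, 7.95, 8.09 and 7.93 at 1 dpi, 7.87, 7.80 and 7.49 at 3 dpi, 8.41, 8.10 and 8.46 at 7 dpi, 8.52, 8.27 and 8.25 at 14 dpi, and at 90 dpi it was 8.70, 8.78 and 8.53. All injured pools of rps8b lay below all controls. The log2 difference was -1.25 ± 0.15 at 4 hpi (limma adjusted p = 4.79e-06), -1.02 at 1 dpi (2.9e-05), -1.29 at 3 dpi (2.49e-06), -0.69 at 7 dpi (0.00274) and -0.66 at 14 dpi (0.00623), each held without any 1 pool, and -0.34 at 90 dpi (0.112). Over the 21 arrays its correlation with the mean of the other 68 genes was -0.50, the lowest of the family.

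The small-subunit gene rps9 was called lower at all 6 times. Its signal was 9.12, 9.34 and 9.42 in control pools, 8.83, 8.60 and 8.73 at 4 hpi, 8.85, 9.01 and 9.03 at 1 dpi, 9.01, 8.99 and 8.87 at 3 dpi, 8.99, 8.92 and 8.71 at 7 dpi, 8.75, 8.79 and 8.96 at 14 dpi, and at 90 dpi it was 8.78, 8.80 and 8.52. No injured pool of rps9 reached a control pool. The log2 difference was -0.57 ± 0.12 at 4 hpi (limma adjusted p = 0.00102) and -0.59 ± 0.12 at 90 dpi (0.00311), both held without any 1 pool.

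In between, the differences of rps9 were -0.33, -0.34, -0.42 and -0.46 at 1, 3, 7 and 14 dpi. The calls at 1 and 3 dpi were lost without any pool other than control replicate 1 (highest limma adjusted p = 0.14 and 0.134). The call at 7 dpi was lost without 7 dpi replicate 3 (highest 0.0856), that at 14 dpi without 14 dpi replicate 1 (highest 0.0684), and both without control replicate 2 or 3.

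Of the large subunit, rpl7a was called lower from 4 hpi to 14 dpi. Its signal was 8.47, 8.84 and 9.05 in control pools, 8.33, 7.35 and 8.06 at 4 hpi, 7.79, 7.78 and 7.96 at 1 dpi, 8.26, 8.16 and 8.17 at 3 dpi, 8.19, 8.31 and 8.17 at 7 dpi, 7.93, 7.86 and 7.93 at 14 dpi, and at 90 dpi it was 8.26, 8.45 and 8.09. All injured pools lay below the controls, and 4 hpi replicate 2 was the lowest. The log2 difference of rpl7a at 4 hpi was -0.87 ± 0.19 (limma adjusted p = 0.00151), -0.59 (0.00644) without 4 hpi replicate 2, and -1.03 (0.000876) without control replicate 1. At 1 dpi it was -0.94 (0.000723) and at 14 dpi -0.88 (0.00525), both held without any 1 pool. The calls at 3 dpi (-0.59, 0.0218) and 7 dpi (-0.56, 0.0419) were lost without control replicate 2 or 3 and without 3 dpi replicate 2 or 3 or any 7 dpi pool (highest 0.107 and 0.179).

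The large-subunit genes rpl13a and rpl26 shared the low value of 4 hpi replicate 2. The signal of rpl13a was 6.79, 7.36 and 7.36 in control pools, 6.65, 5.35 and 6.25 at 4 hpi, 6.43, 6.52 and 6.73 at 1 dpi, 6.83, 6.97 and 6.82 at 3 dpi, 6.58, 6.88 and 6.76 at 7 dpi, 6.08, 6.28 and 6.44 at 14 dpi, and at 90 dpi it was 6.56, 6.47 and 6.41. Its pools of 4 hpi and of 1, 14 and 90 dpi lay below the controls, and those of 3 and 7 dpi overlapped control replicate 1. At 4 hpi rpl13a had a log2 difference of -1.08 ± 0.23 (limma adjusted p = 0.00143), -0.72 ± 0.18 (0.00495) without 4 hpi replicate 2, and -1.28 ± 0.25 (0.000902) without control replicate 1.

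At 14 dpi rpl13a was lower by 0.90 on the log2 scale (limma adjusted p = 0.0162), a call lost without 14 dpi replicate 1 or control replicate 2 or 3 (highest 0.0693). The calls at 1 dpi (-0.61) and 90 dpi (-0.69, both 0.0485) were lost without any pool other than control replicate 1 (highest 0.152 and 0.157).

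The signal of rpl26 was 6.48, 7.23 and 7.44 in control pools, 6.60, 5.21 and 6.48 at 4 hpi, 6.46, 6.29 and 6.45 at 1 dpi, 6.86, 6.76 and 6.87 at 3 dpi, 6.64, 6.91 and 6.75 at 7 dpi, 6.22, 6.43 and 6.49 at 14 dpi, and at 90 dpi it was 6.14, 6.29 and 6.34. Control replicate 1 lay among the injured pools. At 4 hpi rpl26 had a log2 difference of -0.95 ± 0.28 (limma adjusted p = 0.011), -0.51 ± 0.20 (0.0588) without 4 hpi replicate 2 and -1.24 ± 0.28 (0.0024) without control replicate 1, and its call was also lost without control replicate 3 (highest 0.0612). The sixth gene called lower at 4 hpi was rps25, of the small subunit (-0.28, adjusted p = 0.046 in limma).

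**Figure D4:**
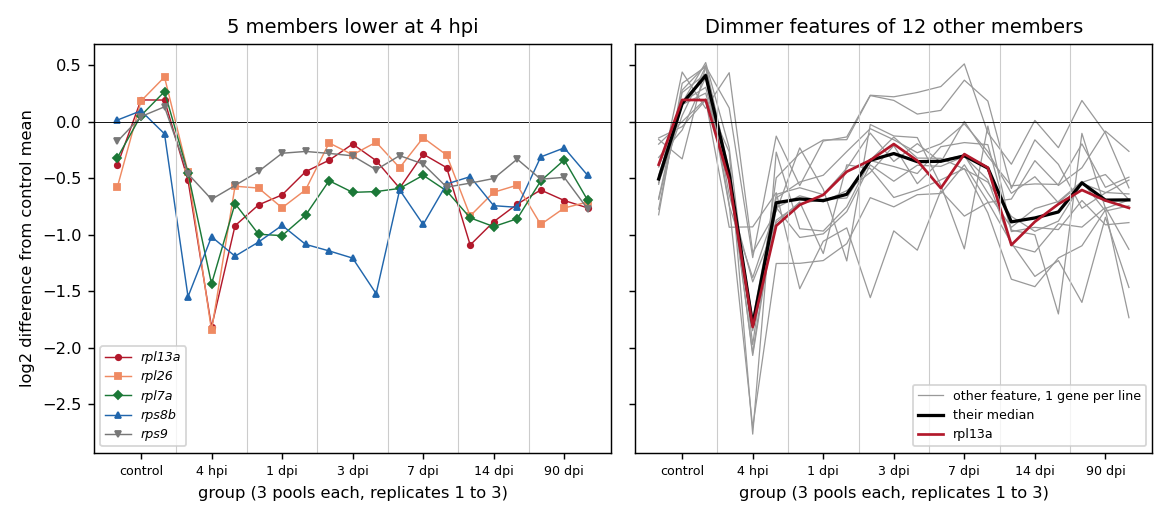
Log2 difference from the control mean in each of the 21 pools for 5 ribosomal protein genes called lower at 4 hpi (left) and for the dimmer features of 12 genes, with their median and rpl13a (right); lines join the pools of 1 feature only to guide the eye. 4 hpi replicate 2 is the lowest point of rpl13a, rpl26 and rpl7a and of most dimmer features, and rps8b does not share it.

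Genes with more than 1 feature gave a second reading, and it differed from the first. A total of 16 dimmer features belonged to genes of the family, and 13 were tested. That of rpl23 exceeded the filter of 6 only in control replicates 2 and 3 (6.04 and 6.17). Its highest pool after injury was 5.87, so its lower call at 4 hpi and its part in the medians below follow partly from the filter. At 4 hpi 10 of the 13 were called lower and 1 higher, with a median log2 difference of -0.96, while the features chosen for the same 13 genes had a median of 0.00. At 14 dpi 7 were lower and none higher (median -0.80, against -0.07 for the chosen features), and at 90 dpi 3 were lower (-0.60 against -0.14). At 1 dpi 5 were lower and 1 higher, and at 3 and 7 dpi 1 was lower and none higher. Lower calls among all tested features were 17.5%, 16.5%, 14.9%, 8.02%, 4.57% and 7.68% from 4 hpi to 90 dpi. The 1 lower feature of 13 at 3 and at 7 dpi was thus near or below that share. Higher calls were 21.3% and 22% of all tested features at 4 hpi and 1 dpi. The 10 lower calls of 4 hpi were also 10 with quantile normalization and with centring, against 22% and 23.8% lower among all tested features.

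Most dimmer features correlated with rpl13a more closely than with their own gene's chosen feature, and that of rps27.1 was an exception. Over the 21 arrays, r with rpl13a was 0.95 for the dimmer feature of rps14, 0.93 for that of rps15a, 0.93 for rps4x, 0.92 for rpl23, 0.92 for rpl28 and 0.91 for rpl9. With their own chosen features these 6 dimmer features had r between 0.02 (rpl23) and 0.60 (rps14). The dimmer feature of rps27.1 had r = 0.59 with rpl13a and 0.82 with its own chosen feature, that of rps27l had 0.69 and 0.68, and those of rpl11 (0.23) and rpl37 (-0.21) did not follow rpl13a. For the chosen features of the 6 genes named first r with rpl13a was between 0.14 (rpl23) and 0.55 (rps14). Of the other chosen features, those of rpl26 (0.93), rpl7a (0.84) and rpl14 (0.80) followed rpl13a most closely. These values come from the same 21 arrays and share their scaling, and they are given as a description.

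The dimmer feature of rps14 read 6.41, 7.34 and 7.51 in control pools, 6.63, 5.24 and 6.22 at 4 hpi, 6.36, 6.40 and 6.41 at 1 dpi, 6.75, 6.95 and 6.77 at 3 dpi, 6.76, 6.67 and 6.55 at 7 dpi, 6.25, 6.12 and 6.21 at 14 dpi, and at 90 dpi it was 6.54, 6.46 and 6.45. Control replicate 1 lay among the injured pools and 4 hpi replicate 2 was the lowest, as for rpl26. In 9 of the 13 dimmer features 4 hpi replicate 2 was the lowest of all 21 arrays, and in 12 control replicate 1 was the lowest control. Among the 69 chosen features these counts were 9 and 41, and among the 35783 tested features 2249 and 13575. Without 4 hpi replicate 2, 7 of the 13 dimmer features were called at 4 hpi and their median was -0.59 in place of -0.96. Without control replicate 1, 9 were called and the median was -1.20.

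A pair of dimmer features went against the chosen feature of the same gene. For rpl37 the chosen feature was lower at 1 dpi (-0.49 ± 0.10, limma adjusted p = 0.000579) and the other higher (0.475, 0.00143). For rps26l the chosen feature was higher at 1 and 90 dpi, as above, and the other lower (-0.75, 0.036, and -1.20, 0.00653). That other feature was also lower at 4 hpi (-0.99, limma adjusted p = 0.00817) and 14 dpi (-1.35, 0.00324), when the chosen feature was not called. The directions of rpl37 and rps26l are therefore uncertain. The dimmer feature of rpl11 followed rps8b instead, with r = 0.81 over the 21 arrays, and was called lower from 4 hpi to 14 dpi (-1.22 at 3 dpi, limma adjusted p = 2.2e-05), while the chosen rpl11 feature was called at no time.

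For the genes used as references, the comparison showed rpl13a lower at 4 of 6 times, rpl8 higher at 4 hpi, and rps18 not called. The rpl13a feature was dim, with group means from 6.08 to 7.17, and most dimmer features followed it, as described above. Its call at 4 hpi held without any 1 pool. Those at 1, 14 and 90 dpi were each lost without some single pools. The signal of rpl8 was 9.14, 9.17 and 9.12 in control pools, 9.53, 9.59 and 9.48 at 4 hpi, 9.29, 9.48 and 9.45 at 1 dpi, 9.44, 9.38 and 9.16 at 3 dpi, 9.23, 9.24 and 9.14 at 7 dpi, 9.38, 9.11 and 9.42 at 14 dpi, and at 90 dpi it was 9.19, 9.13 and 8.96. Its 4 hpi and 1 dpi pools were above the controls, and its log2 difference at 4 hpi was 0.39 ± 0.11 (limma adjusted p = 0.00837, held without any 1 pool). With quantile normalization rpl8 was also called at 1 dpi.

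The signal of rps18 was 8.40, 8.52 and 8.44 in control pools, 8.58, 8.52 and 8.50 at 4 hpi, 8.46, 8.44 and 8.39 at 1 dpi, 8.44, 8.54 and 8.31 at 3 dpi, 8.25, 8.56 and 8.32 at 7 dpi, 8.33, 8.25 and 8.46 at 14 dpi, and at 90 dpi it was 8.31, 8.21 and 8.03. The 90 dpi pools were below the controls and all other times overlapped them. The 6 differences of rps18 lay between -0.27 and 0.08 (lowest limma adjusted p = 0.0862, at 90 dpi), and the one at 90 dpi was called with centred arrays.

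At 90 dpi the family median was the lowest of the 6 times, under each of the 3 scalings. The 10 genes called lower were rpl5b, rpl7l1, rpl9, rpl13a, rpl27a and rpl29 of the large subunit and rps4x, rps9, rps25 and rps27.2 of the small subunit. The protein rpl5 carries 5S ribosomal RNA into the large subunit and in mammals can bind the p53 regulator MDM2. The log2 differences in limma ran from -0.69 (rpl13a) to -0.29 (rpl5b, adjusted p = 0.0447).

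The small-subunit gene rps25 fell to 9.44, 9.56 and 9.57 at 90 dpi from 9.92, 10.12 and 10.08 in control pools, a log2 difference of -0.52 ± 0.11 (limma adjusted p = 0.00346), and rpl9 differed by -0.53 ± 0.11 (0.00355). The signal of rpl27a was 8.35, 8.54 and 8.53 in control pools and 8.40, 7.72 and 7.59 at 90 dpi. For rpl27a replicate 1 of 90 dpi lay among the controls, and its call (-0.57 ± 0.16, limma adjusted p = 0.0195) was lost without 90 dpi replicate 2 or 3 or control replicate 2 or 3 (highest 0.0968). The higher genes at 90 dpi were rplp2 and rps26l, the latter with a dimmer feature called lower.

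Neighbouring times differed in fewer genes. From 4 hpi to 1 dpi none of the 69 rose and 3 fell, against 19.4% and 15% of all tested features. With quantile normalization 5 rose and 3 fell, against 19.3% and 15.2%. At an unadjusted p under 0.05 in the deposited values 7 rose, a threshold at which the share of all tested features is not given here. From 1 to 3 dpi 1 rose and none fell, against 2.72% and 1.27%, and none fell at an unadjusted p under 0.05. From 3 to 7 dpi 1 rose and 1 fell, against 2.11% and 4.86%. In either direction these are 3, 1 and 2 genes, against 34.4%, 3.99% and 6.97%.

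From 7 to 14 dpi none rose and 2 fell, against 0.813% and 1.57%. At an unadjusted p under 0.05 none rose and 21 fell. The 2 shares are for adjusted p, and the share of all tested features at the unadjusted threshold is not given here. The 21 are therefore not read as a fall of the family. From 14 to 90 dpi 3 rose and 5 fell, against 4.29% and 7.03%, and the either-direction shares of all features at these steps were 2.38% and 11.3%. The largest steps of the family as a whole were those into and out of 3 to 7 dpi, with a median of 0.13 from 1 to 3 dpi, where 54 of 69 genes were above 0, and of -0.17 from 7 to 14 dpi, where 59 were below 0. With centring they were 0.18 and -0.19. The medians over all tested features were -0.02 and 0.02 at these steps. Of the 35783 tested features 16598 were above 0 from 1 to 3 dpi, and 17009 were below 0 from 7 to 14 dpi. The 69 genes share their arrays, so these counts are a description.

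The genes moved together only in part. Over the 2346 pairs of genes the median r across the 21 arrays was 0.30 (middle 50%, 0.07 to 0.51), with 80.3% of pairs above 0. After the group means were removed, it was 0.18. These correlations share the arrays and their scaling and are a description. The genes closest to the mean of the others were rpl5b (0.88), rps25 (0.87) and rps12 (0.87), and those furthest from it after rps8b were rplp2 (-0.15) and rps27.1 (-0.03).

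Genes of ribosome biogenesis, which process ribosomal RNA and assemble the subunits in the nucleolus, had larger median changes than the ribosomal protein genes at 4 hpi and 1, 3 and 14 dpi, and smaller ones at 7 and 90 dpi, as deposited. With centred arrays the one at 14 dpi was smaller as well (0.06 against -0.18) and the one at 7 dpi larger (-0.04 against 0.02), and the difference was not tested. Of 97 tested genes 75 rose and 4 fell at 4 hpi, 65 and 2 at 1 dpi and 36 and 4 at 3 dpi, followed by 13 and 3 at 7 dpi and 10 and 2 at 14 dpi. At 90 dpi the balance was the other way, with 2 higher and 15 lower. Higher calls were thus 77.3%, 67%, 37.1%, 13.4% and 10.3% of the list from 4 hpi to 14 dpi. Among all tested features they were 21.3%, 22%, 20.7%, 14.5% and 9.39%, so the shares at 7 and 14 dpi were near those of all features. Lower calls at 90 dpi were 15.5% of the list, against 7.68%. From 4 hpi to 90 dpi the medians of the list were 0.70, 0.52, 0.23, 0.06, 0.18 and -0.09, and with centred arrays 0.57, 0.34, 0.10, -0.04, 0.06 and -0.14. The rRNA methyltransferase gene nop2 rose most at 4 hpi (1.43 ± 0.20, limma adjusted p = 2.16e-05), with nip7 (1.40), rrp9 (1.33) and ftsj3 (1.25). At 90 dpi fbl, the rRNA methyltransferase of box C/D particles, was lower by 0.74 (limma adjusted p = 0.000832).

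**Figure D5:**
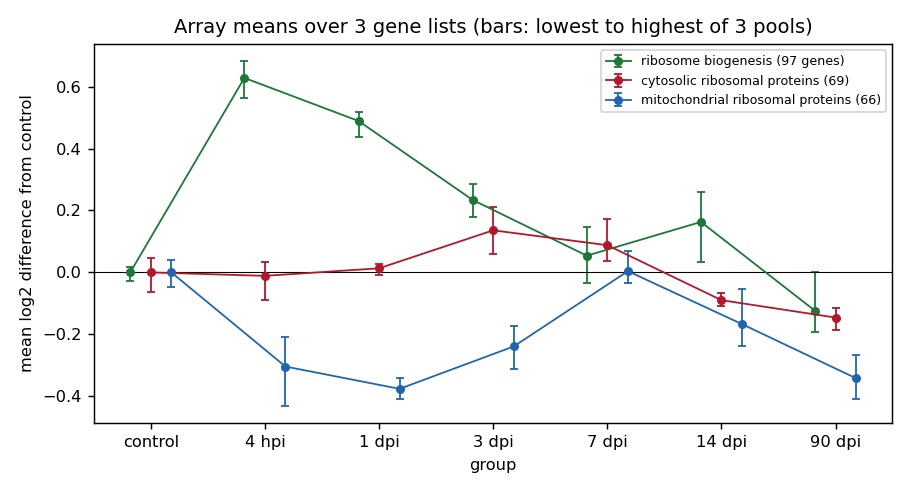
Mean log2 difference from control over 97 ribosome biogenesis genes (green), 69 cytosolic (red) and 66 mitochondrial (blue) ribosomal protein genes; points are means of 3 pools and bars run from the lowest to the highest pool. The green points lie above 0.4 at 4 hpi and 1 dpi, the blue points below -0.2 from 4 hpi to 3 dpi, and the red points stay between -0.15 and 0.14. The signs of the red points at 4 hpi and 1 dpi are not settled, since the family's median changed sign there with the scaling, and the biogenesis median at 7 dpi did so too.

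The 66 genes of mitochondrial ribosomal proteins, which translate the mitochondrial genome, moved the other way early. At 4 hpi 1 rose and 28 fell (median -0.29), at 1 dpi 1 and 32 (-0.37), at 3 dpi 1 and 24 (-0.20), at 7 dpi none and 5 (0.04), at 14 dpi 1 and 9 (-0.16) and at 90 dpi none and 29 (-0.32). Lower calls were 42.4%, 48.5%, 36.4%, 7.58%, 13.6% and 43.9% of the list in order of time. Among all tested features they were 17.5%, 16.5%, 14.9%, 8.02%, 4.57% and 7.68%, so the share at 7 dpi was near that of all features. The 7 dpi median was -0.06 with centred arrays. The largest fall at 4 hpi was that of mrpl42 (-1.13 ± 0.12, limma adjusted p = 1.37e-06), and at 90 dpi that of mrps17 (-0.93).

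Of 53 initiation factor genes 10 rose and 11 fell at 4 hpi (18.9% and 20.8%, near the 21.3% and 17.5% of all tested features), and none rose and 11 fell at 90 dpi (20.8%, against 7.68% lower among all tested features; median -0.17). The 4E-binding protein gene eif4ebp3l, an inhibitor of cap-dependent initiation, rose at 4 hpi (1.54 ± 0.26, limma adjusted p = 0.000148), and eif4e2 fell (-1.35, 4.11e-06). Of 13 elongation and termination genes 2 rose and 2 fell at 4 hpi. Of 39 genes of the Tor pathway and S6 kinases, which phosphorylate rps6, 8 rose and 13 fell at 4 hpi (20.5% and 33.3%), among them rps6kb1a (1.33 ± 0.18, limma adjusted p = 1.84e-05) and the Tor inhibitor ddit4 (1.68 ± 0.42, 0.00436) upwards and the Rag GTPase gene rragd (-1.81 ± 0.19, 1.58e-06) downwards. The gene larp1, whose product binds the pyrimidine start of ribosomal protein mRNAs, was lower at 7 dpi (-0.62 ± 0.16, 0.01) and 90 dpi (-0.66 ± 0.16, 0.00939).

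Of 14 p53 pathway genes other than rps27l, 10 rose and 1 fell at 4 hpi, 6, 7, 6 and 6 rose and none fell at 1, 3, 7 and 14 dpi, and 4 rose and 1 fell at 90 dpi. Higher calls were 71.4%, 42.9%, 50%, 42.9%, 42.9% and 28.6% of the list in order of time. Among all tested features they were 21.3%, 22%, 20.7%, 14.5%, 9.39% and 11.2%. The calls of rps27l came at 3 and 7 dpi only, and a link to the list was not tested. The death receptor gene fas rose most at 4 hpi (2.51 ± 0.27, limma adjusted p = 1.79e-06). A pair of ribosomal proteins whose genes have other names, rack1 and rpsa of the small subunit, were called at no time, with differences between -0.14 and 0.15.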

How the data were processed

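RNA from 21 ventricle pools was hybridised to Affymetrix Zebrafish Gene 1.0 ST arrays. The authors made the deposited log2 signals from the scans by robust multi-array averaging with a GC-content correction in Partek Genomics Suite. These values were used unchanged, 0 columns lacked a sample, and symbols came from the array's annotation, in which 68 of the 69 genes carry a RefSeq gene ID. Features with several symbols were not used here.

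A single limma (3.58.1, R 4.3.3) model of 7 groups, with 14 residual degrees of freedom, was fitted to the 35783 features whose log2 signal exceeded 6 on 1 or more arrays. Tests were two-sided, p-values were adjusted by Benjamini-Hochberg over these features in each comparison, and a gene was called at an adjusted p under 0.05. With 3 pools against 3 an exact test cannot go below 0.1, so the p-values lean on the shared variance, and the number of arrays limits the precision. The script was tested on simulated data. Plots were made in matplotlib 3.10.9 under Python 3.11.15.

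Pool values are given for the 3 largest called rises and falls at each time, for related gene pairs and for reference genes. From the other lists, genes were named from the 4 with the largest called change at a time, with larp1 at 7 dpi named after its values were seen. Members and lists were chosen with earlier results of these data known. Replicate numbers repeat across groups. Deviations of equally numbered pools correlated at over 0.1 in all 3 pairs only between 3 and 1 dpi (0.11 to 0.15), so the numbers were not used as a block. Alternatives were the filter, quantile normalization, centring, the variance model, 6-array fits, the block, thresholds, 1 pool left out, and the mean over a gene's features. The start sites of the mRNAs were not analysed here.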

Additional observations from a re-analysis of the deposited data

Results flagged for a closer look

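A total of 16 changes between neighbouring times passed the limma test of the difference itself. Several depended on single pools: with 1 pool left out, the count of calls went from 3 to between 1 and 4 from 4 hpi to 1 dpi, from 1 to between 0 and 2 from 1 to 3 dpi, and from 2 to 1 or 2 from 3 to 7 dpi. From 7 to 14 dpi it went from 2 to 0 whichever pool was left out, and from 14 to 90 dpi from 8 to between 2 and 7. From 4 hpi to 1 dpi rpl37 (-0.36, adjusted p = 0.00675), rplp2 (-0.31, 0.0339) and rps27.2 (-0.30, 0.0441) fell, the first with a second feature that reads the other way against control. The stalk protein gene rplp2b rose from 1 to 3 dpi (0.49, adjusted p = 0.0169 in limma), fell from 3 to 7 dpi (-0.56, 0.00694) and fell again from 7 to 14 dpi (-0.48, 0.0374). In the opposite sense rps8b rose from 3 to 7 dpi (0.60, adjusted p = 0.019 in limma).

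The small-subunit gene rps15 fell from 7 to 14 dpi (-0.40, limma adjusted p = 0.0272) and rose from 14 to 90 dpi (0.29, 0.0449). From 14 to 90 dpi rplp2 (0.58, limma adjusted p = 0.00366) and rps27.1 (0.78, 0.0408) rose too, the latter from pools of 7.90, 7.81 and 7.29. In the same step rpl38 (-0.54, 0.043), rpl9 (-0.39, 0.0298), rps25 (-0.35, 0.0389), rps29 (-0.41, 0.036) and rps7 (-0.41, 0.0166) fell in limma.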

How the results depend on the processing

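Counts are of the 69 genes called in limma, with higher and lower in brackets, and medians are their log2 differences. Without a filter, or with a filter of 3 arrays, 2 were called between 1 and 3 dpi. Quantile normalization gave a median of -0.036 and 21 non-overlapping genes (6 above, 15 below) at 4 hpi, 13 calls at 1 dpi (5 and 8), and from 4 hpi to 1 dpi 8 calls and a median of 0.083. Centred arrays gave medians of -0.094, -0.129, 0, 0.02 and -0.18 at 4 hpi and 1, 3, 7 and 14 dpi, and called 21 (2 and 19), 12 (7 and 5), 7 (3 and 4), 10 and 19 (2 and 17) at 1, 3, 7, 14 and 90 dpi. They left 32, 35, 20 and 37 genes without overlap at 4 hpi and 1, 7 and 14 dpi. For neighbouring times they gave 6 calls and -0.045 (1 dpi), 3 calls (3 dpi), and 5 calls (3 and 2) and -0.019 (90 dpi). A trended, robust variance gave 12 calls at 7 dpi and 5 each from 1 to 3 and 7 to 14 dpi. Fits of only the 6 arrays compared called 7 (4 and 3), 12, 4 and 0 at 4 hpi and 3, 7 and 90 dpi, and 0 for all neighbouring times. For neighbouring times an unadjusted p under 0.05 in the 21-array fit counted 12, 14, 6, 21 and 17. The share of all tested features at that threshold is not given here. An adjusted p under 0.001 left 2, 4 (1 and 3), 4, 1, 0 and 0 from 4 hpi to 90 dpi, and 0 between neighbours. A further 1.6-fold limit at 0.05 left 5, 3 (1 and 2), 2, 3, 2 and 1, and 0 between neighbours apart from 1 (a rise) from 14 to 90 dpi. The mean over all tested features of a gene gave 18 calls (5 and 13) and a median of -0.042 at 4 hpi, -0.011 at 1 dpi, 5 calls (2 and 3) and 0.065 at 7 dpi, 8 calls at 14 dpi, 1 from 4 hpi to 1 dpi and 5 from 14 to 90 dpi. The cause of these shifts was not tested.

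Leaving out 1 pool gave 9 to 11, 7 to 11, 10 to 14, 5 to 7, 2 to 5 and 5 to 12 calls from 4 hpi to 90 dpi, and 1 to 4, 0 to 2, 1 to 2, 0 to 0 and 2 to 7 between neighbours. The balance of higher and lower turned with 9 calls at 4 hpi without 4 hpi replicate 2 or control replicate 3, with 9 at 1 dpi without control replicate 1, and with 3 from 4 hpi to 1 dpi without 4 hpi replicate 3. Medians ran from 0.011 to 0.056, 0.006 to 0.076, 0.081 to 0.185, 0.055 to 0.141, -0.076 to -0.043 and -0.172 to -0.137, and between neighbours from -0.021 to 0.049, 0.08 to 0.162, -0.103 to -0.002, -0.225 to -0.149 and -0.087 to -0.064. Non-overlapping genes numbered 25 to 31, 37 to 42, 36 to 50, 34 to 40, 28 to 34 and 35 to 41, and turned in balance at 4 hpi with 29 without 4 hpi replicate 3 and 25 without control replicate 1.

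With the replicate number as a block, 11, 10, 18, 7, 4 and 9 genes were called from 4 hpi to 90 dpi. The named calls lost with the block were rpl13a at 1 and 90 dpi, rpl7a at 7 dpi and rps27.2 at 90 dpi, rps20 at 7 dpi was gained, and no named gene changed direction. Same-numbered pools deviated together in only some comparisons (r from -0.137 to 0.201). The alternative that needs start sites was not run. With 3 pools a group, small changes could not be shown, and a difference larger than its error was not always called. An example was rps27.1 at 14 dpi (-0.56, limma adjusted p = 0.128). Array signals set no absolute level.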
